A study of Mus musculus with 2 samples.

Results

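The proneural and neuronal differentiation bHLH genes Neurog1, Neurog2, Neurog3, Atoh1, Ptf1a, Neurod1, Neurod2, Neurod4 and Neurod6 were measured in the whole brain of the mouse embryo. These 9 of 43346 annotated genes were taken by symbol through their Ensembl identifiers, not by their values. The samples were 2 libraries of polyadenylated RNA from E14.5 (embryonic day 14.5) whole brains of strain C57BL/6J, taken from mixed-sex littermates, with no genetic change or treatment named in the labels. Both libraries belong to 1 group and are numbered as biological replicates 1 and 2. How the embryos were divided over both libraries is not stated here, so any distance between them can be technical. With 1 group there is no contrast between conditions, and no p-value is given: levels and the distance between the libraries are described.

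Basic helix-loop-helix (bHLH) factors bind DNA as pairs: the helices hold a partner, mostly a broadly expressed E-protein, and the basic stretch before them contacts the E-box, a short site written CANNTG. Proneural members such as Neurog1, Neurog2 and Atoh1 push dividing progenitors towards neuronal fate and raise Notch ligands that hold neighbouring cells back. The Neurod genes act mostly later, in cells already leaving the cycle and in young neurons. In the brain Neurog1 and Neurog2 are known from dorsal telencephalic progenitors among other regions, Atoh1 from the rhombic lip that gives rise to cerebellar granule neurons, and Ptf1a from the cerebellar and dorsal hindbrain zones that give rise to inhibitory neurons.

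The genes share the part of the protein that reads the E-box, so the coding bases of that stretch are shown for each. They come from GENCODE M21 transcripts (GRCm38/mm10), 81 bases or 27 codons per gene, 5′ to 3′ on the coding strand. Capitals mark the 5 codons of the basic region that read asparagine, any residue, arginine, glutamate, arginine.
Neurog1: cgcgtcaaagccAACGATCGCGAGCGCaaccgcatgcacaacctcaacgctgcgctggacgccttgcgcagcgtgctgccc
Neurog2: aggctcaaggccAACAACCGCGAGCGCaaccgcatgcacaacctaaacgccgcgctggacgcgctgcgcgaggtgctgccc
Neurog3: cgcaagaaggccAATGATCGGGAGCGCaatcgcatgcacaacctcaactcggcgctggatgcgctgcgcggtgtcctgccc
Atoh1: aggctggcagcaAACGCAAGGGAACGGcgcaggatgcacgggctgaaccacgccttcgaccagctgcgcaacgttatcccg
Ptf1a: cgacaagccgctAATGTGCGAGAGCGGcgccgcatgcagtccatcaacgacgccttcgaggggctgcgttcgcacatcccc
Neurod1: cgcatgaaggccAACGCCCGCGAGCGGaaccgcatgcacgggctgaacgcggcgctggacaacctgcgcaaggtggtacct
Neurod2: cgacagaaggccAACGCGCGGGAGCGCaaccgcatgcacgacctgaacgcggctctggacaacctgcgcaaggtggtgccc
Neurod4: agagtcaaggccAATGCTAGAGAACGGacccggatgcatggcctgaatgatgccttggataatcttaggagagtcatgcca
Neurod6: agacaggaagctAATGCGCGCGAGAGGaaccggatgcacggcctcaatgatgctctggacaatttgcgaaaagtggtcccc
The stretches lie at chr13:56251570-56251650 (minus strand), chr3:127634068-127634148 (plus), chr10:62133715-62133795 (plus), chr6:64729794-64729874 (plus), chr2:19446344-19446424 (plus), chr2:79454651-79454731 (minus), chr11:98327887-98327967 (minus), chr10:130271059-130271139 (minus) and chr6:55679285-55679365 (minus), in the same order. Each is coding sequence in an exon: exon 1 of the 1-exon genes Neurog1 and Atoh1, exon 1 of 2 in Ptf1a and exon 2 of 2 in the other 6 genes.

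Within that stretch the 3 Neurog genes shared 79.0% to 84.0% of bases in each pair. The 4 Neurod genes shared 64.2% to 86.4%, with Neurod1 and Neurod2 the closest pair of all 9 genes (70 of 81 bases) and Neurod4 the most distant Neurod member from the other 3. Neurod against Neurog pairs shared 58.0% to 79.0%. Atoh1 shared 51.9% to 65.4% with the Neurog and Neurod genes, and Ptf1a 53.1% to 60.5% with any member. The stretch was found by a pattern that fixes 11 of the 27 encoded residues, so part of this likeness is set by the search.

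**Figure D1:**
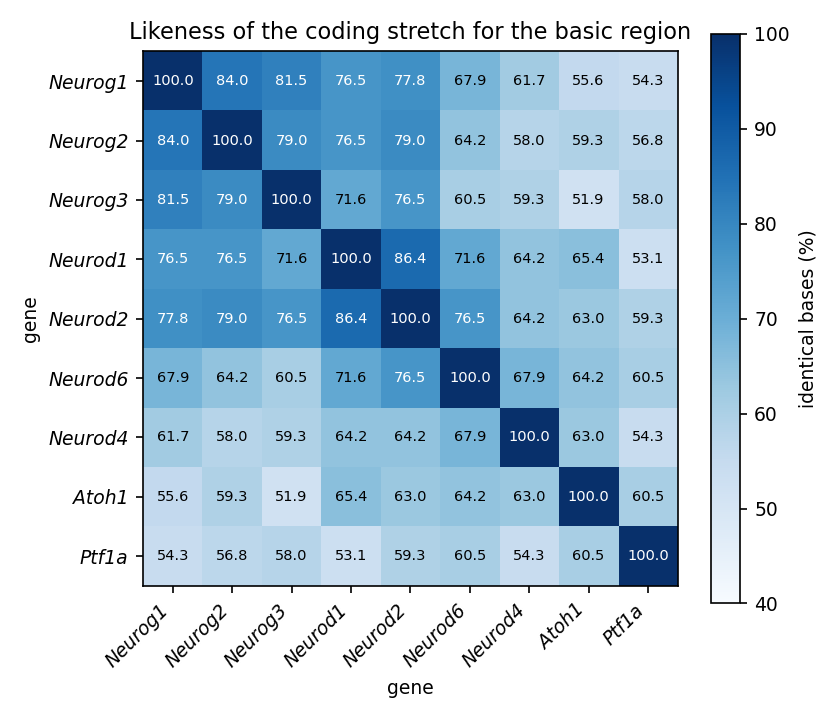
Percent of identical bases over the 81-base coding stretch for each pair of genes (both axes list the genes; darker is more alike, and the diagonal is each gene with itself). Pairs within Neurog reach 79.0% or more, and Ptf1a stays between 53.1% and 60.5% with every other gene.

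The libraries held 103493289 and 97539730 expected counts on annotated genes in replicates 1 and 2. Mitochondrial genes took 8.49% and 12.2% of TPM (a level scaled by transcript length and library size), and spike-in RNA 4.12% and 3.53% of counts. Over the 15240 genes with a mean of 1 TPM or more, the median log2 ratio of replicate 2 over replicate 1 was 0.01 and the median absolute log2 ratio 0.27, on the log2(TPM + 1) scale. Markers of young neurons and progenitors were present. Of the young neuron genes 8 of 8 reached 1 TPM in both libraries, Tubb3, Stmn2 and Gap43 the highest. The progenitor genes did so in 8 of 8 cases, beside 62.2% of all protein-coding genes. These markers cannot tell whole brain from a part of it. The young neuron genes summed to 4741 and 5258 TPM and the progenitor genes to 2224 and 1944 TPM. Vim (1012 and 789 TPM) and Fabp7 (765 and 862 TPM) weighed most in the progenitor sum. Of the 8 progenitor genes 5 were lower and 3 higher in replicate 2, and Cdk1 was at least 2-fold lower (167 and 70.7 TPM).

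The 9 genes ranged from 0.165 to 103 TPM in mean level, and 7 of 9 reached 1 TPM in both libraries, beside 62.2% of 21474 protein-coding genes. By mean TPM the order was Neurod6, Neurod2, Neurog2, Neurod1, Neurog1, Atoh1, Neurod4, Ptf1a and Neurog3. The libraries' ranges overlapped for the neighbours Neurod6 and Neurod2, for Neurod2 and Neurog2, and for Atoh1 and Neurod4, and the last of these pairs changed places between the libraries. The other 5 neighbouring pairs did not overlap. Together the 9 genes summed to 375 and 164 TPM in replicates 1 and 2.

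**Figure D2:**
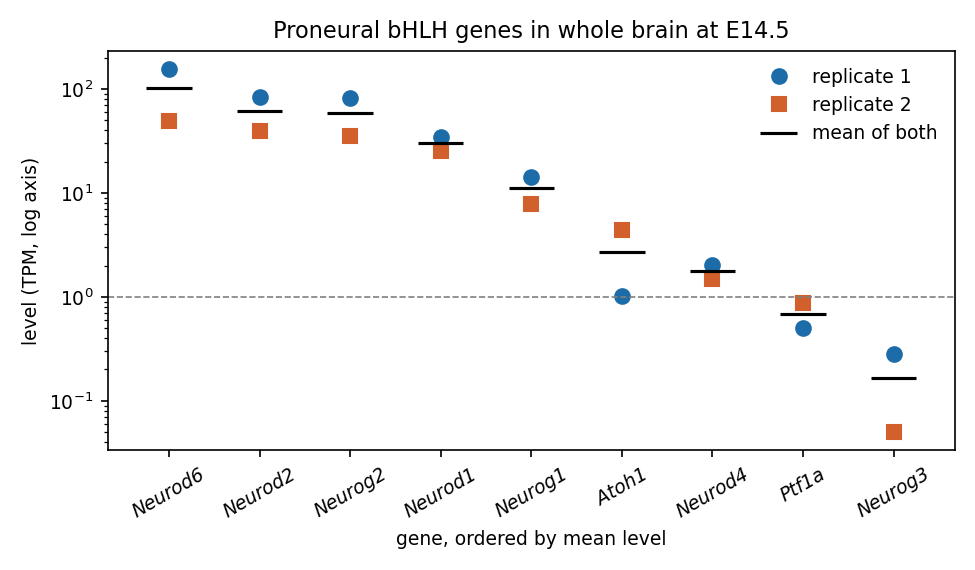
Level of each gene in TPM (log axis) in replicate 1 (circles) and replicate 2 (squares), with the mean as a bar, ordered by mean; the dashed line is 1 TPM. Neurod6, Neurod2 and Neurog2 lie between 35.05 and 156 TPM and higher in replicate 1, whereas Atoh1 and Ptf1a lie higher in replicate 2.

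Neurog2, which starts neurogenesis in cortical progenitors, was the highest of the proneural initiators. Replicate 1 held 82.1 TPM of it and replicate 2 held 35.05 TPM, from 11266 and 4332 expected counts (58.6 ± 33.3 TPM, SD, n = 2). The level in replicate 1 was 2.34 times that in replicate 2, with an exact 95% binomial interval of 2.26 to 2.43 on the counts. Such intervals cover counting error only, not the variation between animals or dissections.

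Neurog1, a close relative that acts in overlapping progenitors and in cranial sensory neurons, stood at 14.35 and 7.74 TPM (1413 and 688 counts). It too was higher in replicate 1, by 1.85 times (interval 1.69 to 2.03). Neurog2 exceeded Neurog1 5.72-fold in replicate 1 and 4.53-fold in replicate 2, so their order held in both libraries. Cranial sensory ganglion markers were also present: 9 of 11 measured reached 1 TPM in both libraries, and they summed to 165 and 194 TPM, higher in replicate 2 where Neurog1 was lower. Their part in the Neurog1 level was not tested.

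Neurog3, known for endocrine pancreas and used sparsely in the brain, was the lowest member at 0.28 and 0.05 TPM, from 25 and 4 counts. With 4 counts in replicate 2 the ratio was 5.64 with an interval of 1.95 to 22.3. The pancreas genes Pdx1 and Ins1 were listed at 0 in both libraries, and Ins2 at 0.37 and 0.81 TPM. Neurog3 lies inside the span of Fam241b on the other strand, which stood at 76.9 and 54.8 TPM. Whether the authors' counting used strand is not stated, so the few counts of Neurog3 are uncertain.

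Atoh1, the rhombic lip factor, went the other way. Replicate 1 held 1.03 TPM of it and replicate 2 held 4.43 TPM, from 132 and 510 counts (2.73 ± 2.40 TPM, SD, n = 2). Replicate 2 was 4.29 times replicate 1, with an interval of 3.54 to 5.23. Neurod6 thus exceeded Atoh1 151-fold in replicate 1 and 11.1-fold in replicate 2. Atoh1 also marks inner ear hair cells, whose gene Gfi1 stood at 0.10 and 0.08 TPM while 4 of 6 hair cell genes reached 1 TPM in both libraries.

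Ptf1a, which specifies inhibitory neurons and forms a trimer with an E-protein and Rbpj, stood at 0.50 and 0.88 TPM, from 44 and 70 counts. The direction matched that of Atoh1 at a smaller size, 1.76 times (interval 1.19 to 2.63). The antisense gene Ptf1aos, which overlaps it, was listed at 0 in both libraries.

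Neurod6, a marker of postmitotic excitatory neurons of the cortex, was the highest member. Replicate 1 held 156 TPM of it and replicate 2 held 49.2 TPM, from 20641 and 5866 counts (103 ± 75.5 TPM, SD, n = 2). Replicate 1 was 3.17 times replicate 2, with an interval of 3.08 to 3.26. By mean TPM it ranked 1464 of 21474 protein-coding genes.

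Neurod2, which works beside Neurod6 in maturing cortical neurons, stood at 83.8 and 39.5 TPM, from 16745 and 7105 counts (61.65 ± 31.3 TPM). Replicate 1 was 2.12 times replicate 2 (interval 2.06 to 2.18). Neurod2 and Neurog2 kept close to each other: their ratio was 1.02 in replicate 1 and 1.13 in replicate 2. Neurod6 exceeded Neurod2 1.86-fold in replicate 1 and 1.24-fold in replicate 2.

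Neurod1, active in intermediate progenitors and young neurons of many regions, differed less between the libraries. It stood at 34.8 and 25.4 TPM, from 5981 and 3916 counts (30.1 ± 6.70 TPM), a ratio of 1.37 with an interval of 1.32 to 1.43. Neurod4, which acts with Neurod1 in several lineages, was far lower at 2.04 and 1.48 TPM, from 436 and 285 counts. The ratio of replicate 1 to replicate 2 was again 1.37 (interval 1.18 to 1.60), and Neurod1 exceeded Neurod4 17.1-fold in both libraries. Pituitary and retina also use these genes: the pituitary genes Gh and Prl were listed at 0 in both libraries, and the photoreceptor gene Crx at 0.06 and 0.13 TPM.

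Of the 9 genes, 3 were at least 2-fold lower in replicate 2 on the log2(TPM + 1) scale, Neurod6 (-1.64), Neurog2 (-1.20) and Neurod2 (-1.06), beside 1.14% of 15240 genes. Only Atoh1 was at least 2-fold higher (1.42), beside 2.39% of genes. Neurog1 (-0.81), Neurod1 (-0.44), Neurod4 (-0.29), Neurog3 (-0.29) and Ptf1a (0.33) lay within 2-fold on that scale, which compresses the differences of low genes. After rescaling without mitochondrial and spike-in entries Neurod2 came just inside 2-fold, which left 2 genes lower. In bulk tissue, fewer cells that express a gene and less RNA per cell cannot be told apart.

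**Figure D3:**
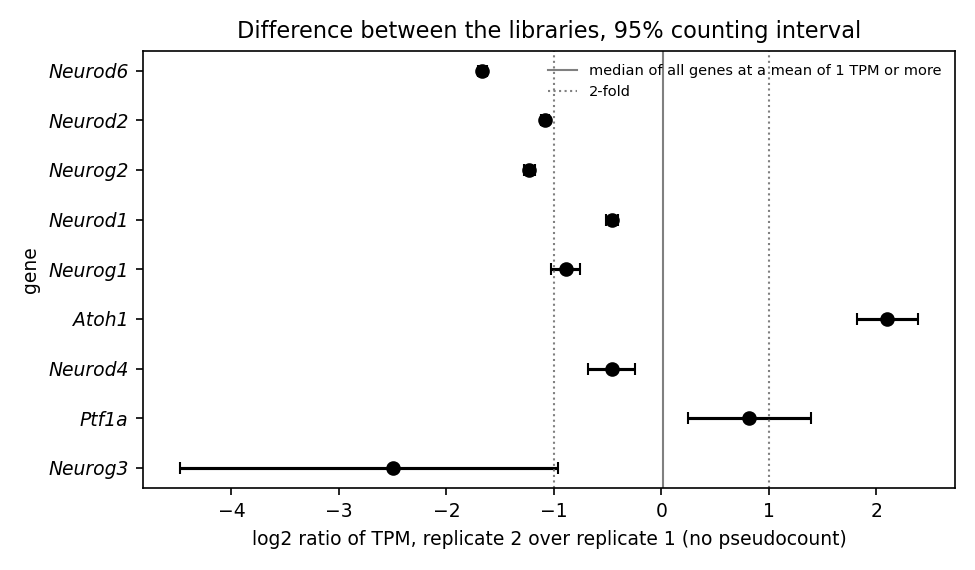
Log2 ratio of TPM, replicate 2 over replicate 1, without a pseudocount (x axis) for each gene (y axis); bars are exact 95% binomial intervals on the counts, dotted lines mark 2-fold and the solid line the median of all genes. Atoh1 and Ptf1a lie on the right, the other 7 genes on the left, and Neurog3 has the widest interval because it had 25 and 4 counts.

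The composition of the group changed with these differences. Neurod6 made up 41.6% of the summed TPM of the 9 genes in replicate 1 and 30.1% in replicate 2. Neurod1 went from 9.29% to 15.5% and Atoh1 from 0.27% to 2.71%, whereas Neurog2 (21.9% and 21.4%) and Neurod2 (22.3% and 24.1%) took similar shares in both libraries.

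For each member at a mean of 1 TPM or more, the protein-coding genes nearest in level over the 2 libraries were found by Euclidean distance of log2(TPM + 1). Among the nearest to Neurog2 was Cks2 at 84.9 and 36.1 TPM (distance 0.064). Among the nearest to Neurod6 was Gadd45g at 123 and 60.0 TPM (0.44), the greatest distance of those given here. Nearest to Neurod2 were Ccnb1 (0.10) and Cdc20 (0.11), to Neurog1 Iqgap3 (0.017), to Neurod1 Gmpr2 (0.015) and Mrps22 (0.026), to Neurod4 Chrm4 (0.0075) and Ngb (0.012), and to Atoh1 Gm3020 (0.17) and Col8a2 (0.18). With only 2 libraries this likeness rests on 2 values per gene.

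Counts past 2-fold and log2 ratios of gene lists are given on the log2(TPM + 1) scale, for genes with a mean of 1 TPM or more in the case of the counts. On that scale 0 of 19 other neural bHLH genes were called in either direction, where 12 of the 19 had a mean of 1 TPM or more, and the median log2 ratio over all 19 was 0.06. Bhlhe22, a cortical excitatory gene of the same superfamily, stood at 31.6 and 15.55 TPM, a log2(TPM + 1) ratio of -0.98, just short of the call. Atoh7, a retinal relative of Atoh1, stood at 1.14 and 2.64 TPM, a log2(TPM + 1) ratio of 0.77. In plain TPM both of these genes differed by more than 2-fold, so the count of 0 rests on the pseudocount.

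The E-protein partners stood above most members: Tcf12 at 129 and 107 TPM, Tcf3 at 115 and 97.1 TPM and Tcf4 at 57.7 and 66.0 TPM. The Id genes, whose products lack a basic region and tie up E-proteins, were all 4 slightly lower in replicate 2, with a median log2 ratio of -0.22 and 0 past 2-fold. Id4 was the highest of them at 181 and 146 TPM. The partners and inhibitors thus varied less between the libraries than Neurod6, Neurog2 or Neurod2 did.

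Of 13 Notch pathway genes, 9 were lower in replicate 2, with a median log2 ratio of -0.51. The manic fringe gene Mfng was at least 2-fold lower (60.2 and 28.6 TPM) and the ligand gene Jag1 at least 2-fold higher (3.02 and 9.87 TPM). The ligand Dll1, which proneural factors are known to raise, stood at 61.5 and 36.9 TPM, and the feedback gene Hes6 at 203 and 109 TPM. Among 23 genes known as targets of proneural factors, 14 were lower and 9 higher, with a median of -0.25. Mfng, Gadd45g (123 and 60.0 TPM) and Eomes (27.96 and 9.62 TPM), a marker of intermediate progenitors, were at least 2-fold lower. Ebf3 (31.9 and 102.62 TPM) and Cbfa2t3 (7.60 and 23.0 TPM) were at least 2-fold higher.

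Genes of the regions where the members are known to act were unequal between the libraries as well. All 12 cortical excitatory lineage genes were lower in replicate 2, with a median log2 ratio of -0.91 and 4 of them at least 2-fold, among these Emx1 (57.4 and 10.6 TPM), Fezf2 (59.0 and 11.4 TPM) and Eomes. Of 9 ventral telencephalic genes, which lie outside the Neurod6 lineage, 8 were lower with a median of -0.75, Dlx1 among them at 220 and 71.2 TPM. The lower levels in replicate 2 thus took in ventral as well as dorsal telencephalic genes.

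On the side of Atoh1, 8 of 10 rhombic lip genes were higher in replicate 2, with a median of 0.37 and 0 past 2-fold, for example Barhl1 at 20.98 and 34.99 TPM. Zic1, the highest of that list, stood at 479 and 490 TPM. Of 11 genes of dorsal hindbrain and the Ptf1a lineage 10 were higher with a median of 0.69, and 5 passed 2-fold, led by Pax2 (1.59 and 15.4 TPM) and Lbx1 (0.81 and 6.41 TPM). All 10 hindbrain identity genes were higher with a median of 1.92, and 9 of 10 passed 2-fold, Hoxb5 the most (2.76 and 33.4 TPM). Midbrain and cerebellar genes had a median of 0.97. The summed levels were 761 and 389 TPM for the cortical list and 27.8 and 173 TPM for the hindbrain list. Whether the share of each brain region in the dissected tissue differed between the libraries, and its part in the differences of Neurod6, Neurog2, Neurod2 and Atoh1, was not tested.

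**Figure D4:**
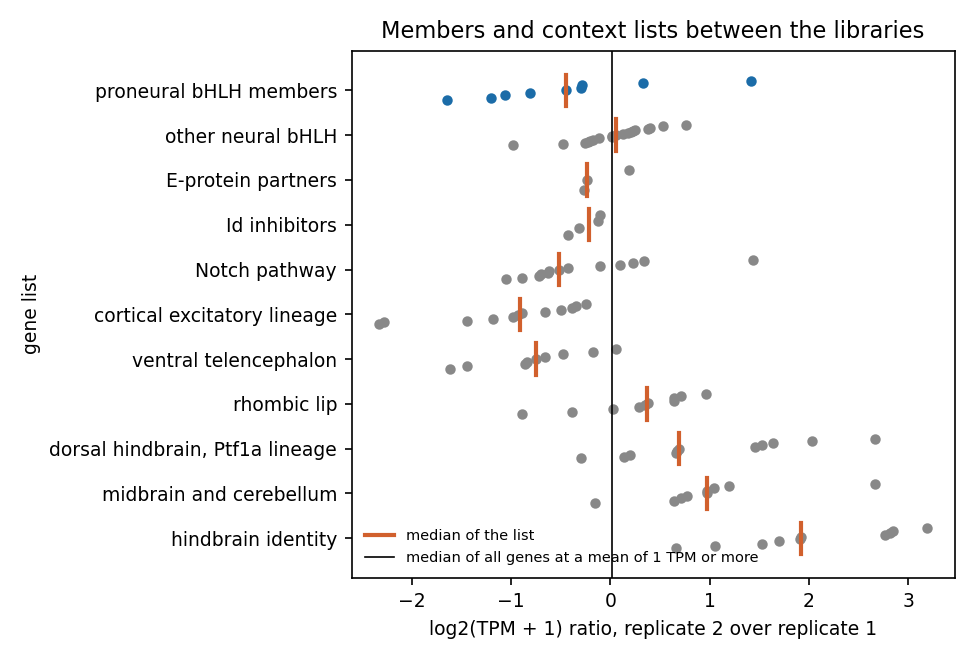
Log2(TPM + 1) ratio of replicate 2 over replicate 1 (x axis) for each gene of the 9 members and of 10 context lists (y axis); points are genes, thick bars the list medians and the thin line the median of all genes. The cortical list has a median of -0.91, the hindbrain list of 1.92, and the members spread from -1.64 to 1.42.

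Each member was quantified with 1 transcript in the deposited mm10 tables, so isoforms cannot be compared there. The deposited splice junctions, in mm9 coordinates with the reads of both replicates summed, show the intron of each 2-exon gene. Neurod6 had 1367 reads over its intron (chr6:55629666-55630957), Neurod1 661 (chr2:79295206-79296707), Neurog2 611 (chr3:127336376-127336645) and Neurod2 236 (chr11:98189656-98190747). Neurod4 had 28 reads, Ptf1a 5 and Neurog3 1. Among junctions lying within the gene, the annotated intron held 92.9% to 100% of the reads that used either of its splice sites. The value of 100% was that of Ptf1a and Neurog3, with 5 reads and 1 read. Left out are junctions that run from the Neurod1 intron's 5′ splice site past the gene's 3′ end. These are chr2:79234188-79296707 with 8 reads and chr2:79289364-79296707 with 3. Neurod6 led in spliced reads as it did in TPM, and Neurod4, Ptf1a and Neurog3 came last in the same order. Neurod1, Neurog2 and Neurod2 stood in the reverse of their order in mean TPM.

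Neurod2 alone had other junctions inside the gene, on its own strand, with a reproducibility value of 0.1 or less, where low is reproducible. An unannotated junction of 588 bases (chr11:98189656-98190243) shared the 3′ splice site of the annotated intron and had 15 reads, with a value of 0.005. At 15 against 236 reads it was the minor form. A further gap of 46 bases (chr11:98187172-98187217) had 8 reads and a value of 0.047. On the other strand a junction of 23535 bases (chr11:98188348-98211882, 8 reads, value 0.023) joined the Neurod2 locus to the span of Ppp1r1b. Neurog2 had an unannotated junction upstream of its start (chr3:127331042-127333758, 9 reads, value 0.028).

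Contigs, stretches of continuous read cover called by the authors in mm9, extended past several annotated ends. The contig level is the authors' own value, on an unstated scale. The contig over Neurog2 (level 11.7, 5195 bases) began 2404 bases before the annotated start, and 3 further sense contigs lay upstream of it at levels of 0.076 to 0.117. The contigs of Neurod1 (6.86), Neurod6 (20.3) and Neurod2 (20.0) ran 1401, 1297 and 983 bases past the annotated 3′ ends, and began 249, 522 and 128 bases before the starts. Those of Neurog1 and Atoh1 kept within 143 and 45 bases of the start and 27 and 3 bases of the end. Cerkl, on the same strand, overlaps Neurod1 in the mm9 annotation and stood at 0.80 and 0.35 TPM, far under Neurod1.

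Opposite-strand contigs lay near 8 of the 9 genes, each at a lower level than the gene's highest sense contig. Of 26 within 5000 bases of a member, 11 had a reproducibility value of 0.1 or less, 4 of them at Neurod2 and 4 at Neurod6. At Neurod2 they ran away from the start on the other strand, the longest over 5060 bases at a level of 0.177. At Neurod6 the 4 lay upstream of the start at levels of 0.061 to 0.075. At Ptf1a a contig of 110 bases (chr2:19365012-19365121, level 0.194, value 0.08) lay within the mm9 span of Ptf1aos and on its strand. Ptf1aos itself was listed at 0 TPM in both libraries. Neurog3 had none, and its sense contigs stood at 0.077 and 0.075.

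**Figure D5:**
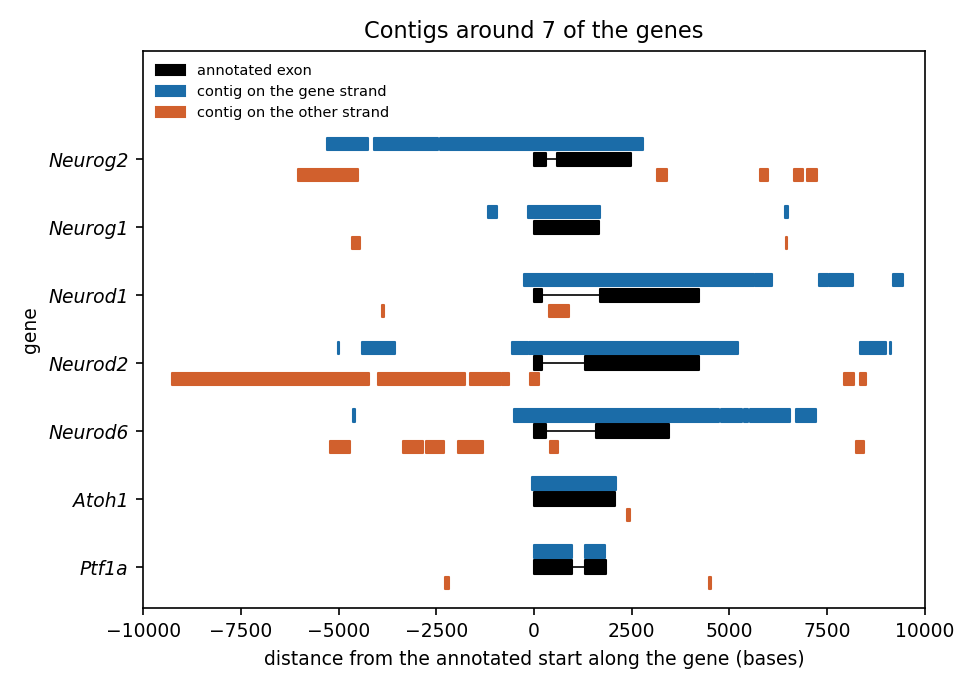
Annotated exons (black), contigs on the gene's strand and contigs on the other strand around 7 of the genes, by distance in bases from the annotated start (x axis), with all genes drawn left to right. The Neurog2 contig starts 2404 bases before the gene, and the contigs of Neurod1, Neurod2 and Neurod6 run past the last exon; Neurod4 and Neurog3 are not drawn.

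For Neurod6, Neurod2 and Neurog2, called lower in replicate 2, and Atoh1, called higher, the sequence just before the start is shown, from RefSeq (GRCm38.p6). Whether these sequences have a part in the differences between the libraries was not tested. Capitals mark E-boxes, searched as CANNTG, which reads as CANNTG on both strands. Bases after either the RefSeq or the GENCODE start were left out.
Neurod6: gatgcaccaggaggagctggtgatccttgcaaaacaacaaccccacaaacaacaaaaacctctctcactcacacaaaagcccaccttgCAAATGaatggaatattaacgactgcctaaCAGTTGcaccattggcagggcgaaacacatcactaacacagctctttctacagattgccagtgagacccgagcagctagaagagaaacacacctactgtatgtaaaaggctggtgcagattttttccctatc
Neurod2: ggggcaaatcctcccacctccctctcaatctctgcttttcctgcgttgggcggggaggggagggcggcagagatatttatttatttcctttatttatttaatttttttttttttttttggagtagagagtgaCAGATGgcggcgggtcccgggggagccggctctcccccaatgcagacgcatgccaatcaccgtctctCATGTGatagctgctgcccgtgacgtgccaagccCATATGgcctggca
Neurog2: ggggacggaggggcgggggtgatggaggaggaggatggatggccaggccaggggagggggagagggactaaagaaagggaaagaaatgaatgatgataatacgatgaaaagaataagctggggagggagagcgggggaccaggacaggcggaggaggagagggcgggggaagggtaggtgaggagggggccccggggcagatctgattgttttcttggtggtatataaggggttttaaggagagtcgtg
Atoh1: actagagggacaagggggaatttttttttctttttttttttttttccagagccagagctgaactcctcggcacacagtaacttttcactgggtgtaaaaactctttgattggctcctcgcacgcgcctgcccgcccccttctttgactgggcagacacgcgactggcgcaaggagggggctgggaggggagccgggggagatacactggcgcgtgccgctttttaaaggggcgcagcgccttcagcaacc
They lie at chr6:55681264-55681513 (minus strand), chr11:98329649-98329895 (minus), chr3:127632886-127633134 (plus) and chr6:64728875-64729124 (plus). The Neurod6 stretch holds 2 E-boxes and the Neurod2 stretch 3, each with a different pair of middle bases. The Neurog2 and Atoh1 stretches hold none. In windows of 250 bases before to 50 after the start, 5 of the 9 members hold at least 1 E-box, beside 72.1% of 27025 promoters.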

How the data were processed

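RNA of 2 libraries was analysed from the deposited tables. The deposited expected counts were estimated by the authors per gene and per transcript from transcriptome alignments to mm10 with GENCODE M4, per the labels' text notes; no tool is named there. The deposited TPM and FPKM values are scaled by effective length over all entries, and the deposited isoform percent is each transcript's share of its gene. The deposited mm9 RPKM values use Ensembl 65, and 37310 of 74620 lines were kept because each gene is listed on a pair of lines. Junction read counts were deposited with both replicates summed. The deposited contig signal has no stated scale. The reproducibility fraction was deposited per junction and contig.

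Symbols and mm10 coordinates came from GENCODE M21; promoters came from RefSeq for 9 of 9 members. The 97 spike-in entries (4.12% and 3.53% of counts) and 26248 entries named by numbers, which held 0 counts, were kept out. Log2 ratios used a pseudocount of 1, and genes with a mean of 1 TPM or more were called past 2-fold. No test was run. Counting intervals are exact 95% binomial. A count of 0 allows up to 3 counts, which is 2.9e-06% of counts in replicate 1 and 3.08e-06% in replicate 2. Named were all members, the 3 highest genes of each list, list genes past 2-fold and the 2 protein-coding genes nearest each member; Crx, Gfi1, Ins2, Atoh7, Fam241b, Cerkl, Ptf1aos and Ppp1r1b were named after their values were seen, as were list genes given at 0. A few genes counted within the lists are not named here. The members and lists were chosen with earlier results of these data known. Alternatives used a pseudocount of 0.1, no filter, posterior mean TPM, FPKM, rescaling, edgeR 4.0.16 TMM values, DESeq2 1.42.0 size factors (both on rounded expected counts), mm9 RPKM, thresholds of 0.5 and 5 TPM, each library left out, a reproducibility value of 0.1 or less, and a shorter promoter window. Steps were tested on simulated data. Calculations ran in Python 3.11.15 (with pandas 2.3.3, scipy 1.17.1 and numpy 2.4.6) and R 4.3.3.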

Additional observations from a re-analysis of the deposited data

How the results depend on the processing

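The count of members at 1 TPM or more in both libraries was 7. It was 4 with mm9 RPKM, 5 with FPKM or a threshold of 5 TPM, 8 with a threshold of 0.5 TPM, and 7 to 7 with either library left out. The counts at least 2-fold lower (3) and higher (1) in replicate 2 stayed the same in number with a pseudocount of 0.1, no filter, posterior mean TPM, FPKM, TMM values and DESeq2 size factors. Rescaling without mitochondrial and spike-in entries gave 2 lower. No member changed its direction under these settings. The log2 ratio ran from -1.74 to -1.58 for Neurod6, from -1.30 to -1.14 for Neurog2, from -1.16 to just inside 2-fold for Neurod2 and from 1.16 to 2.02 for Atoh1. The median of all genes ran from -0.06 to 0.07. Opposite-strand contigs fell from 26 to 11 with a reproducibility value of 0.1 or less, because fewer contigs pass it, and introns with spliced reads from 7 to 5. E-boxes numbered 8 in the full promoter windows and 7 without the 50 bases after the start. The mm9 RPKM values gave no counts of lower or higher members, since their numbers are not tied to a library, and leaving out a library leaves no difference to give. Depth limits Neurog3, Ptf1a and, in replicate 1, Atoh1, which had 132 counts or fewer. No paired analysis was possible because there is 1 group.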

Other observations

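The deposited mm9 table gives each gene a pair of RPKM values, numbered 1 and 2. For all 9 members the higher of the pair carried the other number than the higher TPM library: Neurod6 had 5.91 as RPKM 1 and 21.4 as RPKM 2, and Atoh1 0.512 and 0.151. The same held for 424 of the 451 genes that differed at least 2-fold in TPM and had both values (94.0%). The size of the difference was close in both tables, 3.63-fold in RPKM and 3.17-fold in TPM for Neurod6, and 3.38-fold and 4.29-fold for Atoh1. In the junction table the names carry reads as R1 and R2, and these followed the order of the TPM libraries for Neurod6 (945 and 422), Neurog2 (381 and 230), Neurod2 (146 and 90), Neurod4 (16 and 12) and Ptf1a (1 and 4), but not for Neurod1 (326 and 335) or Neurog3 (0 and 1). None of these numbers was used to assign a value to a library.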
